A study of Mus musculus with 16 samples.

Results

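The 7 small heat shock protein genes Cryab, Hspb1, Hspb2, Hspb3, Hspb6, Hspb7 and Hspb8 were followed in mouse rotator cuff muscle by RNA sequencing. They were taken by gene symbol from a deposited table of 11710 genes, and each symbol stood for 1 row. The 16 samples formed 4 groups of 4. Unoperated BL6 samples came from C57BL/6J mice, a reference inbred strain, and unoperated MRL samples from MRL/MpJ mice, an inbred strain known for closing ear wounds. The operated BL6 and operated MRL samples came from mice of the same strains after the rotator cuff tendon was removed and the muscle was denervated. The sample labels name the supraspinatus and the series description names the infraspinatus, so the tissue is called rotator cuff muscle here. No labels of age, sex or time after surgery were used. The design asks whether the response of the muscle to the tear differs between the strains.

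Small heat shock proteins are chaperones that bind partly unfolded proteins without using ATP and hold them in large oligomers until they are refolded or degraded. They share a conserved alpha-crystallin domain. Cryab (alpha-B-crystallin), Hspb1 (Hsp25 in mouse, Hsp27 in human), Hspb6 (Hsp20) and Hspb8 (Hsp22) are found in many tissues with high levels in muscle, whereas Hspb2, Hspb3 and Hspb7 are mostly restricted to heart and skeletal muscle. In muscle fibres these proteins associate with desmin, filamin and the Z-disc, and inherited changes in human CRYAB and HSPB8 cause muscle disease with protein aggregates.

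Each sample held 24323862 to 43552964 counts, so 3 counts corresponded to 0.0718 to 0.122 CPM (counts per 1000000 of the sample's scaled total), and all 7 members lay far above that limit in each sample and passed the filter on low counts. Skeletal muscle fibre markers such as Acta1, Ckm and Myl1 were present in all samples, with a summed level of 45840 to 107100 CPM over 6 genes. Unoperated MRL replicate 1 stood apart from its group on the first principal component, at -7.49 against -44.9 to -38.7, and operated BL6 replicate 4 lay farthest out at 86.1 against 16.7 to 51.0. Leaving out both libraries gave 6 members called for surgery in BL6, 5 for surgery in MRL, and 2 in each comparison of the strains. Over all genes it called 3823 higher and 3698 lower for surgery in BL6, and 3411 and 3024 for surgery in MRL. Between strains it called 533 higher and 599 lower in unoperated samples, and 949 and 698 in operated ones. The labels do not say whether the samples of a group came from separate mice, so p-values measure the spread between these samples. In bulk muscle, a change in the share of a cell type and a change of RNA per cell cannot be told apart.

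The family as a whole was more abundant after surgery. The 7 genes took 0.258% to 0.344% of all counts in unoperated BL6, 0.432% to 0.762% in operated BL6, 0.223% to 0.290% in unoperated MRL and 0.417% to 0.557% in operated MRL, with no overlap between operated and unoperated samples of a strain. In BL6, 6 of 7 members rose, all but Hspb1, where a gene was called when its adjusted p in the edgeR quasi-likelihood fit was under 0.05, and none fell. Of all 11709 genes tested in BL6, 67.9% were called, 35.1% as higher and 32.8% as lower. In MRL, 5 of 7 members rose, all but Hspb6 and Hspb8, and none fell, against 45% of all genes called, 22.3% as higher and 22.7% as lower. The members' median log2 fold change was 0.66 in BL6 and 0.68 in MRL, beside medians of 0.04 and 0.01 over all genes tested. Regardless of direction, the median size of change over all genes was 0.57 in BL6 and 0.38 in MRL. Depending on the member, 7.99% to 33.1% of all genes had a higher log2 fold change in BL6, and 2.02% to 37.6% in MRL. The operated and unoperated samples did not overlap in 6 members in BL6, where 56.8% of all genes had such separation, and in 2 members in MRL, Cryab and Hspb2, where 33.7% of all genes had it.

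**Figure D1:**
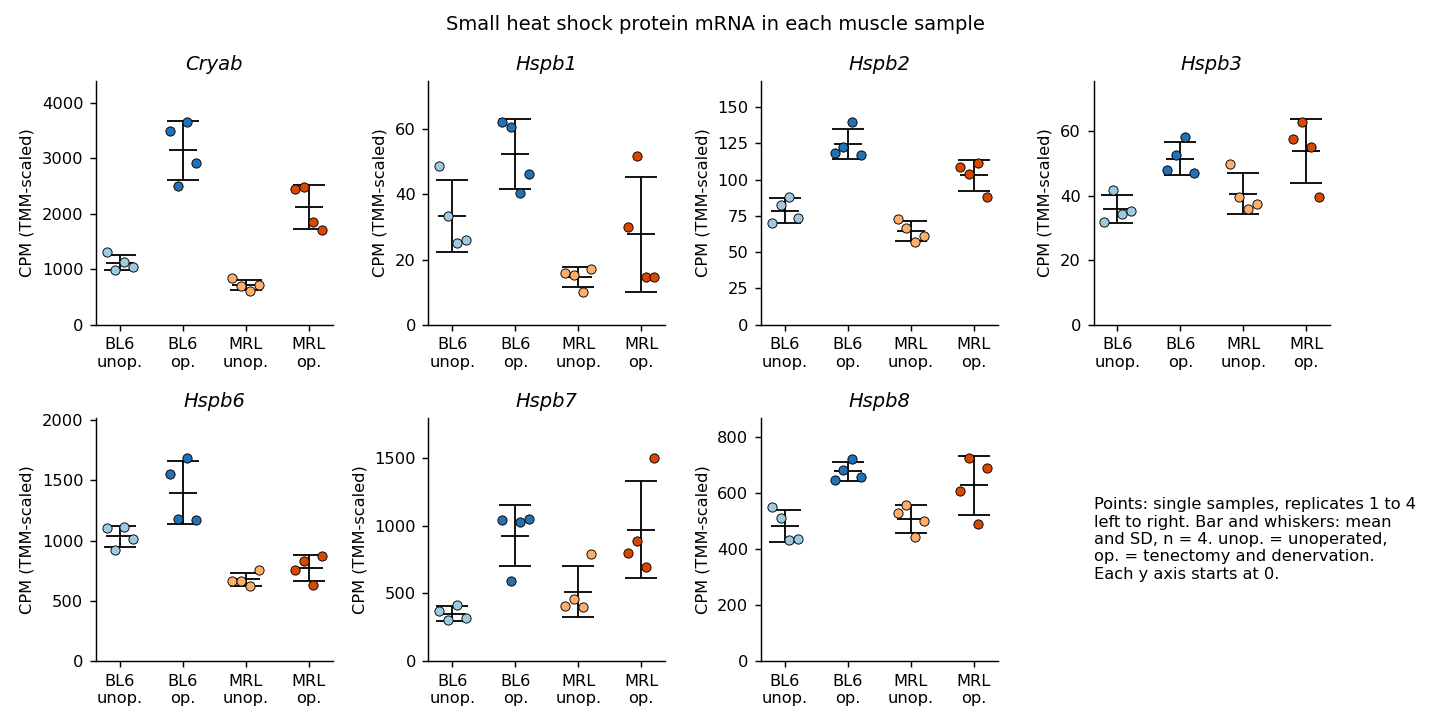
TMM-scaled CPM of the 7 genes (y axes, linear, from 0) in each of the 16 samples, by group (x axes); points are samples in replicate order, and bars with whiskers are the mean and SD of 4 samples. Cryab lies at 616 to 1308 CPM in unoperated and 1716 to 3662 CPM in operated samples, whereas Hspb6 separates the strains, at 622 to 873 CPM in MRL and 922 to 1682 CPM in BL6.

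Cryab, which keeps desmin and other cytoskeletal proteins from aggregating, was the most abundant member by mean CPM over the 16 samples. It also had the largest rise in each strain. Its level in unoperated BL6 was 1308, 985, 1139 and 1048 CPM in replicates 1 to 4, and in operated BL6 it was 3493, 2507, 3662 and 2909 CPM. In MRL it was 842, 700, 616 and 708 CPM without and 2451, 2477, 1853 and 1716 CPM with surgery. All operated samples lay above all unoperated ones, across the strains as well as within them. In unoperated MRL replicate 3, Hspb6 at 622 CPM exceeded Cryab at 616 CPM. In replicate 4 of that group, Hspb7 at 789 and Hspb6 at 758 CPM exceeded Cryab at 708 CPM. Cryab rose 2.81-fold in BL6, a log2 difference of 1.49 ± 0.17 (SE; edgeR adjusted p = 1.59e-05). In MRL it rose 2.96-fold, at log2 1.57 ± 0.17 (SE; edgeR adjusted p = 0.00014). Of all genes tested, 7.99% had a larger fold change in BL6 and 2.02% in MRL. Cryab's share of the family's counts went from 35.6% ± 1.45 to 49.2% ± 1.02 in BL6 and from 28.4% ± 3.29 to 45.5% ± 7.20 in MRL (SD, n = 4).

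Hspb2, which binds the myotonic dystrophy kinase Dmpk and forms a complex with Hspb3, is the head-to-head neighbour of Cryab on chromosome 9. In the GENCODE M21 annotation of GRCm38, Cryab (ENSMUSG00000032060) spans 50751325 to 50756636 on the plus strand and Hspb2 (ENSMUSG00000038086) spans 50751078 to 50752354 on the minus strand. The gene spans overlap by 1030 bases, because 2 of the 6 annotated Cryab transcripts start inside Hspb2. The most downstream coding Cryab transcript starts 666 bases past the start of Hspb2. The genes share 252 exon bases, 30.2% of those of Hspb2 and 17% of those of Cryab. The sources used here do not state whether counting used strand, so reads from the shared bases may not be told apart.

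Despite its place beside Cryab, Hspb2 rose much less. It held 70.0, 82.8, 88.2 and 73.5 CPM in unoperated BL6 and 119, 122, 140 and 117 CPM in operated BL6, and the groups did not overlap. In MRL it held 72.8, 66.9, 57.2 and 60.9 CPM without surgery and 109, 104, 112 and 87.8 CPM with it, again without overlap. Hspb2 rose 1.58-fold in BL6, at log2 0.66 ± 0.11 (SE; edgeR adjusted p = 0.00016), and 1.60-fold in MRL, at log2 0.68 ± 0.11 (SE; edgeR adjusted p = 0.000971).

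The ratio of Cryab to Hspb2 counts within a library does not depend on how libraries are scaled. It was 14.4 ± 3.0 in unoperated and 25.2 ± 3.69 in operated BL6 (SD, n = 4), a rise of 1.76-fold in geometric mean. In MRL it was 11.1 ± 0.562 and 20.6 ± 3.24, a rise of 1.84-fold. In each strain the lowest operated sample lay above the highest unoperated one, and the two-sided exact permutation test gave p = 0.0286, the smallest it can give for 4 against 4, or 0.0381 after Benjamini-Hochberg adjustment over 4 comparisons. Unoperated MRL samples, at 10.5 to 11.6, all lay below unoperated BL6 samples, at 11.9 to 18.7, with the same exact p of 0.0286 and adjusted p of 0.0381. Among operated samples the strains overlapped, with an exact p of 0.143. Whether reads of these genes mapped equally well in both strains was not tested.

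**Figure D2:**
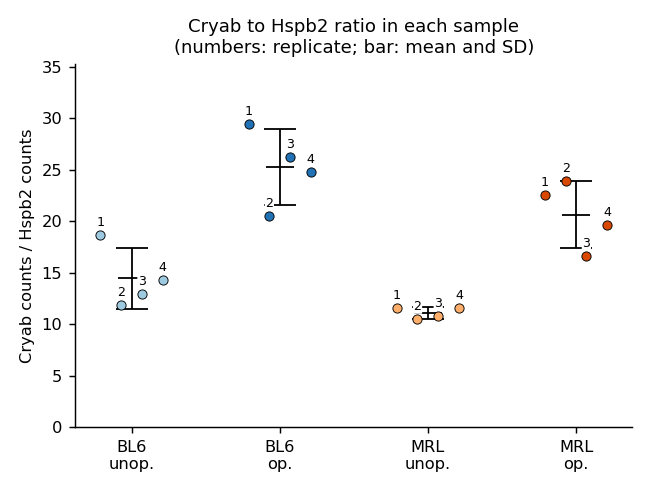
Ratio of Cryab counts to Hspb2 counts (y axis, linear, from 0) in each sample by group (x axis); numbers give the replicate, and bars with whiskers are the mean and SD of 4 samples. The operated BL6 samples sit between 20.5 and 29.4 and the operated MRL samples between 16.6 and 23.9, above the unoperated samples of their own strain.

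Hspb7, a heart and muscle protein that binds the actin crosslinker filamin C, had the next largest rise in BL6. Hspb7 (ENSMUSG00000006221; chromosome 4, 141420779 to 141425311) held 370, 305, 418 and 318 CPM in unoperated BL6 and 1042, 594, 1023 and 1046 CPM in operated BL6. Replicate 2 of operated BL6 was thus low for its group but above all 4 unoperated samples. In MRL it held 404, 461, 399 and 789 CPM without surgery and 801, 890, 695 and 1495 CPM with it. Replicate 4 was the highest MRL sample in both groups, and unoperated replicate 4 lay above operated replicate 3. Hspb7 rose 2.63-fold in BL6, at log2 1.39 ± 0.27 (SE; edgeR adjusted p = 0.000457), and 1.89-fold in MRL, at log2 0.92 ± 0.27 (SE; edgeR adjusted p = 0.0139). Without operated MRL replicate 4 the MRL value was 0.63, and without unoperated MRL replicate 4 it was 1.21 (edgeR adjusted p = 0.042 and 0.00698). The gene whose profile over the 16 samples came closest to that of Hspb7 was Actn2, which codes for the Z-disc crosslinker alpha-actinin 2, at a root mean square difference of 0.27 in mean-centred log2 CPM. Hspb7 itself had a spread of 0.69 on that scale, and the median difference from all genes was 0.76. Actn2 rose from 919 ± 89.4 to 1999 ± 488 CPM in BL6 and from 971 ± 178 to 1969 ± 300 CPM in MRL (SD, n = 4), with log2 fold changes of 1.12 and 1.02 (edgeR adjusted p = 0.00013 and 0.00143).

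Hspb3, the partner of Hspb2 in muscle, was among the less abundant members. Hspb3 (ENSMUSG00000051456; chromosome 13, 113662896 to 113663676) held 31.8, 41.8, 34.4 and 35.2 CPM in unoperated BL6 and 47.8, 52.6, 58.2 and 47.1 CPM in operated BL6. In MRL the groups overlapped, at 49.7, 39.7, 35.7 and 37.4 CPM without surgery and 57.5, 62.9, 55.1 and 39.7 CPM with it. Hspb3 rose 1.44-fold in BL6, at log2 0.52 ± 0.14 (SE; edgeR adjusted p = 0.00478). In MRL it rose 1.32-fold, at log2 0.41 ± 0.14 (SE; edgeR adjusted p = 0.0314). The MRL call was lost without replicate 2, 3 or 4 of unoperated MRL and without replicate 1, 2 or 3 of operated MRL, where the log2 value was 0.32 to 0.39 and the adjusted p 0.07 to 0.097. It was also lost in a fit to only the groups compared, at 0.41 (edgeR adjusted p = 0.0621).

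Hspb6, a phosphoprotein of heart, skeletal and smooth muscle that is a substrate of protein kinase A, had larger fold differences between the strains than with surgery. Hspb6 (ENSMUSG00000036854; chromosome 7, 30552178 to 30555443) held 1101, 922, 1112 and 1012 CPM in unoperated BL6 and 1551, 1182, 1682 and 1168 CPM in operated BL6. In MRL it held 665, 670, 622 and 758 CPM without and 757, 831, 633 and 873 CPM with surgery, and these groups overlapped. The gene rose 1.35-fold in BL6, at log2 0.43 ± 0.15 (SE; edgeR adjusted p = 0.0182). That call was lost without unoperated BL6 replicate 2, at log2 0.38 (edgeR adjusted p = 0.0569), without operated BL6 replicate 1, at 0.37 (0.0547), and without operated BL6 replicate 3, at 0.33 (0.072). It was also lost in a fit to only the groups compared, at 0.41 (edgeR adjusted p = 0.0659). In MRL the log2 fold change was 0.19 (95% interval -0.13 to 0.50, edgeR adjusted p = 0.3).

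Hspb8, which delivers damaged proteins to the co-chaperone Bag3 for removal by autophagy, had a small difference with surgery. Hspb8 (ENSMUSG00000041548; chromosome 5, 116408491 to 116422864) held 550, 511, 434 and 438 CPM in unoperated BL6 and 646, 684, 721 and 658 CPM in operated BL6, without overlap. In MRL the samples held 528, 558, 443 and 502 CPM without and 609, 724, 489 and 689 CPM with surgery, and operated replicate 3 lay within the unoperated range. Hspb8 rose 1.40-fold in BL6, at log2 0.49 ± 0.14 (SE; edgeR adjusted p = 0.00527). In MRL the log2 fold change was 0.31 (95% interval 0.02 to 0.59, edgeR adjusted p = 0.076). Without operated MRL replicate 3 it was called, at 0.41 (edgeR adjusted p = 0.0305), and on all samples DESeq2 called it, at 0.29 (adjusted p = 0.0366).

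Hspb1, the classical stress-inducible member, had the lowest level per kb of exon in all 4 groups, and its samples were widely spread within groups. Hspb1 (ENSMUSG00000004951; chromosome 5, 135887919 to 135889563) held 48.8, 33.5, 24.95 and 25.95 CPM in unoperated BL6 and 62.3, 60.7, 40.4 and 46.3 CPM in operated BL6. It held 16.02, 15.16, 10.03 and 16.96 CPM in unoperated MRL and 29.9, 51.9, 14.6 and 14.6 CPM in operated MRL. Unoperated BL6 replicate 1 reached the range of operated BL6, and 2 of the 4 operated MRL samples lay inside the unoperated range. In BL6 the log2 fold change was 0.66 (95% interval -0.08 to 1.39, edgeR adjusted p = 0.104). Without unoperated BL6 replicate 1 it was called, at 0.90 (edgeR adjusted p = 0.041), as it was without operated MRL replicate 2, at 0.66 (0.0411). In MRL, Hspb1 rose 1.91-fold, at log2 0.93 ± 0.35 (SE; edgeR adjusted p = 0.0423). Without operated MRL replicate 2 the MRL value was 0.43 (edgeR adjusted p = 0.236). The MRL call was also lost without operated MRL replicate 1, without any 1 of the 4 unoperated MRL replicates and without unoperated BL6 replicate 2, with adjusted p from 0.0509 to 0.114. It was lost as well with limma-voom, at 0.73 (adjusted p = 0.103), and when edgeR was fitted to only the groups compared, at 0.93 (adjusted p = 0.0788). In BL6, the fit to only the groups compared called Hspb1, at 0.63 (edgeR adjusted p = 0.0329).

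Within each group, the sample with the most Hspb1 also held the most Hspa1a and Hspa1b. Those 2 genes code for the heat-inducible cytosolic Hsp70 and have near-identical coding sequences, so the division of reads between them is uncertain. Below the top sample the order could differ. Operated BL6 replicate 2 held 60.7 CPM of Hspb1 and 11.9 CPM of Hspa1a, and replicate 4 held 46.3 and 15.2 CPM. The highest Hspb1 sample was replicate 1 in both BL6 groups, replicate 4 in unoperated MRL and replicate 2 in operated MRL. Of 16 heat-inducible chaperones, Hspa1a and Hspa1b had their highest sample in the same replicate in all 4 groups, and 0.256% of all other genes did so. For each of the other 6 members, 0 of these 16 chaperones matched in all 4 groups, as did only 0.128% to 0.589% of all genes. In at least 3 groups, 9 of the 16 matched Hspb1, 5 matched Cryab and 2 matched Hspb8. For Hspb2, Hspb3, Hspb6 and Hspb7 that count was 0. The share of all genes matching in at least 3 groups was not computed. This comparison of highest samples was chosen after the values were seen. Hspa1a held 15.6 CPM in unoperated BL6 replicate 1 against 1.80 to 3.73 CPM in the others of that group, and 69.4 CPM in operated MRL replicate 2 against 8.13 to 25.9 CPM. Over all 16 samples the gene closest to Hspb1 in profile was Hspe1, the co-chaperonin Hsp10 of mitochondria, at a root mean square difference of 0.36 in mean-centred log2 CPM, against a median of 0.90 over all genes.

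**Figure D3:**
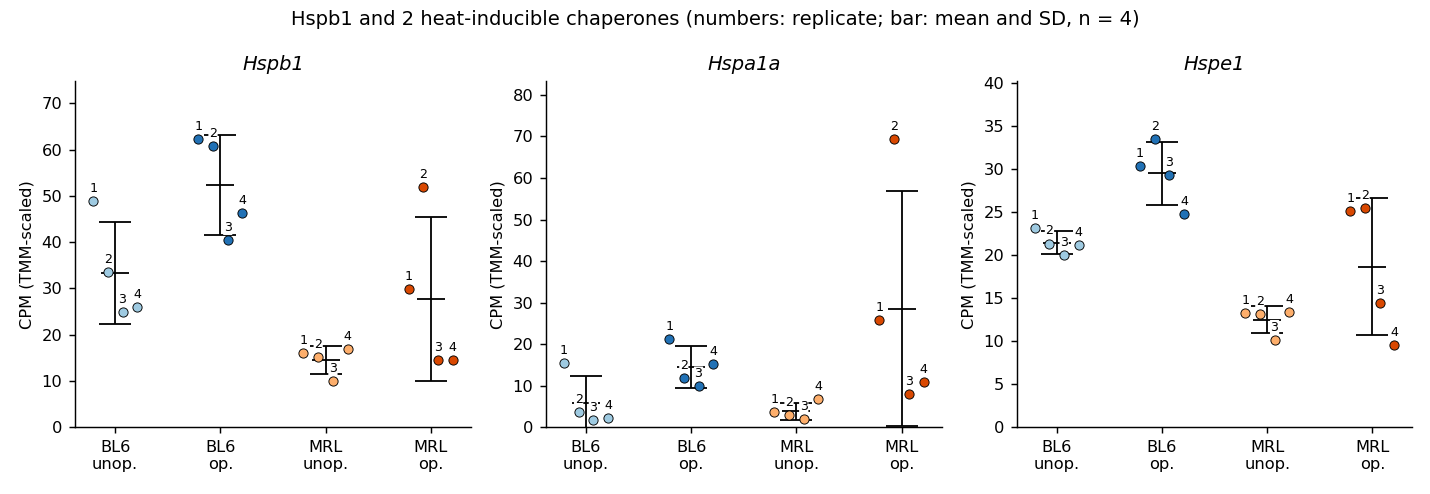
TMM-scaled CPM (y axes, linear, from 0) of Hspb1 and the heat-inducible chaperones Hspa1a and Hspe1 in each sample by group (x axes); numbers give the replicate, and bars with whiskers are the mean and SD of 4 samples. Replicate 1 of unoperated BL6, replicate 4 of unoperated MRL and replicate 2 of operated MRL are the highest of their groups in all 3 panels. For Hspe1 the lead is narrow in the MRL groups, at 13.4 against 13.3 CPM unoperated and 25.5 against 25.1 CPM operated. In operated BL6, Hspb1 and Hspa1a are highest in replicate 1 and Hspe1 in replicate 2, at 33.5 CPM.

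Sequences upstream of the members were read from a RefSeq table for GRCm38.p6, which had entries for 5 of the 7 genes and none for Cryab and Hspb2. In the 250 bases before each annotated start, 4 motifs were searched on both strands. These were the inverted repeats GAANNTTC and TTCNNGAA, which are the core of the heat shock element bound by heat shock factors, the TATA box TATAAA, and the E-box CANNTG, which is read the same on both strands and was found in 66.2% of all windows. Hspb1, Hspb3 and Hspb7 are shown, because Hspb1 held more heat shock elements than the others, Hspb3 held an element farther out and Hspb7 rose most in BL6 among the 5 genes with a sequence. Capitals mark heat shock elements and the TATA box, and no match overlapped another.
Hspb1, chr5:135887669-135887918, plus strand: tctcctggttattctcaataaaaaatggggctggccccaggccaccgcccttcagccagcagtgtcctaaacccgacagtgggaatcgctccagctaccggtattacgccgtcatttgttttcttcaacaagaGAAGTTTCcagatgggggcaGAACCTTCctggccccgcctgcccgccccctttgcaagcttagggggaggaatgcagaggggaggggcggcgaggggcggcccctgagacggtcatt
Hspb3, chr13:113663677-113663926, minus strand: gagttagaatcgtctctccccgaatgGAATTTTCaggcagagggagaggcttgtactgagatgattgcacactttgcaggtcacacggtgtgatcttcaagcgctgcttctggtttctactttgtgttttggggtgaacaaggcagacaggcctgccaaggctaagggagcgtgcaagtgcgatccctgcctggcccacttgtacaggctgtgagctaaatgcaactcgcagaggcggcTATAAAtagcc
Hspb7, chr4:141420529-141420778, plus strand: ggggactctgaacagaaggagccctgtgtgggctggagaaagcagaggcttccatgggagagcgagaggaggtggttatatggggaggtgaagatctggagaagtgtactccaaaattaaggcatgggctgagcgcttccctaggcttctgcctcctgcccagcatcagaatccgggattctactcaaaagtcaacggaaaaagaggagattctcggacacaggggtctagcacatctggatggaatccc

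The Hspb1 window held 2 copies of GAANNTTC, from 117 to 110 and from 97 to 90 bases before the start. Hspb3 held 1 copy, from 224 to 217 bases before the start, and a TATA box from 11 to 6 bases before it. Hspb6 has 2 annotated starts in the table, of which 1 had GAANNTTC from 120 to 113 and TATAAA from 29 to 24 bases before it and the other had neither. Hspb7 and Hspb8 held neither form of the element. Among all 32851 windows of the table, 6.69% held GAANNTTC, 7.17% held TTCNNGAA, 12.8% held at least 1 of the 2 forms, and 12.4% held TATAAA. These matches describe letters only.

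Strain differences lay in Cryab, Hspb6 and Hspb1, and each was lower in MRL. The submitters' notes name only the build mm10, and whether reads of both strains mapped to it equally well was not tested. Among unoperated samples, 3 of 7 members were called lower in MRL and none higher, where 10.4% of all genes were called, 5.36% as lower and 5.02% as higher. Hspb1 was 0.437 times the BL6 level, a log2 difference of -1.19 ± 0.35 (SE; edgeR adjusted p = 0.0409). Cryab was 0.64 times the BL6 level, at log2 -0.64 ± 0.17 (SE; edgeR adjusted p = 0.0227), and Hspb6 was 0.654 times it, at log2 -0.61 ± 0.15 (SE; edgeR adjusted p = 0.0136). The unoperated strains did not overlap in these 3 members, and 25.1% of all genes had such separation. Hspb2, Hspb3, Hspb7 and Hspb8 were not called, with log2 values of -0.29, 0.18, 0.54 and 0.07. The Cryab call was lost without replicate 1 or 3 of unoperated BL6 and without replicate 2, 3 or 4 of unoperated MRL, at log2 values of -0.64 to -0.57 and adjusted p of 0.0581 to 0.0633. The Hspb1 call was lost on leaving out any 1 of 9 samples, which were the 4 unoperated MRL replicates, replicates 1, 2 and 4 of unoperated BL6, operated BL6 replicate 1 and operated MRL replicate 1, at log2 values of -1.30 to -0.96 and adjusted p of 0.0502 to 0.108, and without both libraries that stood apart, at -1.25 (edgeR adjusted p = 0.0651). Scaling by total counts alone moved the median of all genes from 0.01 to 0.15 in this comparison, and none of the 3 was then called, with log2 values of -1.07, -0.50 and -0.47 and adjusted p of 0.063, 0.0993 and 0.0777 for Hspb1, Cryab and Hspb6.

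After surgery, Hspb6 and Cryab were called lower in MRL, 2 of 7 members, against 12.9% of all genes called, 5.27% as lower and 7.6% as higher. Hspb6 was 0.554 times the BL6 level, a log2 difference of -0.85 ± 0.15 (SE; edgeR adjusted p = 0.00112), and every operated MRL sample lay below every operated BL6 sample. This was the most stable of the strain differences, called in all 24 alternatives with log2 values of -0.93 to -0.75. Cryab was 0.676 times the BL6 level, at log2 -0.57 ± 0.17 (SE; edgeR adjusted p = 0.0391). That call was lost without replicate 3 or 4 of unoperated BL6, 1 or 3 of operated BL6, 2 of unoperated MRL and 3 or 4 of operated MRL, at -0.57 to -0.48 and adjusted p of 0.0528 to 0.12. It was also lost in a fit to only the groups compared, at -0.57 (edgeR adjusted p = 0.228), and with total counts alone, at -0.53 (0.0755). Hspb1 was not called, at -0.92 (edgeR adjusted p = 0.0999), but without operated MRL replicate 2 it was, at -1.41 (0.00715). On all samples it was called by DESeq2, at -0.93 (adjusted p = 0.0487), and by limma-voom, at -1.12 (adjusted p = 0.0421). Hspb2 had the operated strains apart in every sample, like Cryab and Hspb6, which 13.6% of all genes did, yet its log2 difference of -0.27 was not called (edgeR adjusted p = 0.128).

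**Figure D4:**
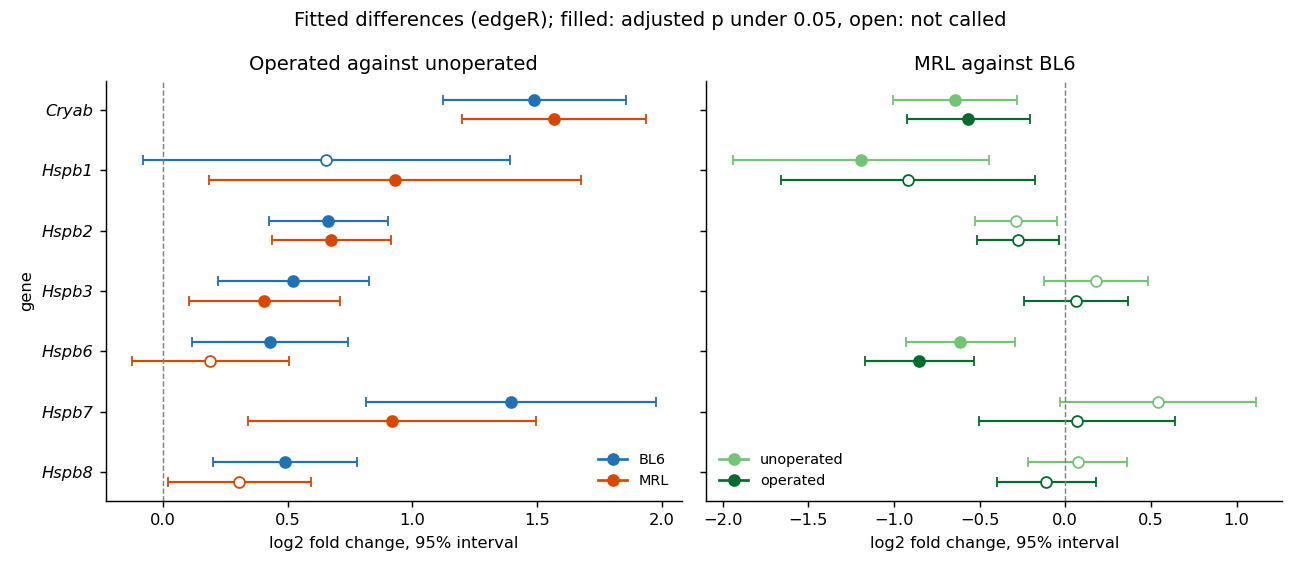
Fitted log2 fold changes (x axes) of the 7 genes (y axis) with 95% intervals, for surgery in each strain (left) and for MRL against BL6 in unoperated and operated samples (right); filled points passed an adjusted p of 0.05 and open points did not. All 14 surgery values lie above 0, with Cryab at 1.49 and 1.57, and the filled strain differences all lie below 0.

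The comparisons of strain and of surgery use the same 16 samples and are not independent of each other. The effect of surgery on a member was not shown to differ between strains. In the direct test of the difference, 0 of 7 members were called and 0 had an unadjusted p under 0.05, against 0.248% of all genes called by edgeR, 0.0939% with the lower effect in MRL. DESeq2 and limma-voom also called 0 members. The difference for Cryab, MRL minus BL6, was 0.08 with a 95% interval of -0.43 to 0.59 on the log2 scale, and for Hspb2 it was 0.01 with an interval of -0.33 to 0.35. The largest in size was that of Hspb7, at -0.48 with an interval of -1.28 to 0.33 (edgeR adjusted p = 0.526). That of Hspb6 was -0.24, with an interval of -0.68 to 0.21, so its call in BL6 alone shows no strain difference in response.

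Compared per kb of annotated exon, the members covered a wide range of levels. In unoperated BL6 the order was Cryab at 757 ± 95.1, Hspb6 at 451 ± 38.6, Hspb8 at 248 ± 29.2, Hspb7 at 127 ± 18.7, Hspb2 at 94.3 ± 10, Hspb3 at 45.9 ± 5.44 and Hspb1 at 32.3 ± 10.7 CPM per kb (SD, n = 4). In that group only Hspb3 and Hspb1 overlapped among neighbours in the order. In operated BL6 the order was the same, but Hspb8 and Hspb7, at 347 ± 16.9 and 335 ± 80.2 CPM per kb, now overlapped too. In unoperated MRL, Cryab came first at 484 ± 63.1 CPM per kb and Hspb6, Hspb8 and Hspb7 followed, each overlapping the next. In operated MRL the samples of Hspb7, Hspb6 and Hspb8 overlapped, at 350 ± 130, 336 ± 45.7 and 322 ± 53.5 CPM per kb, far under Cryab at 1440 ± 268. Exon length is the union over annotated transcripts; for Hspb6, 1 of 4 is coding, so its length of 2299 bases may be too long and its value too low.

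**Figure D5:**
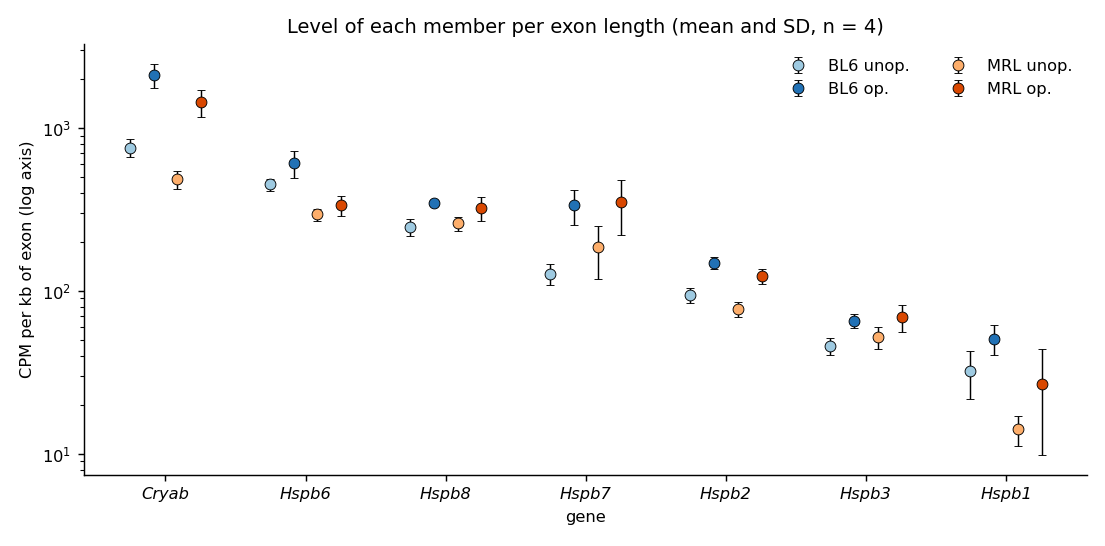
Level of each gene in CPM per kb of exon (y axis, log scale) by gene (x axis) and group; points are means and whiskers the SD of 4 samples. Cryab is the highest gene in each group, at 484 to 2130 CPM per kb, and Hspb1 the lowest, at 14.1 to 50.9 CPM per kb.

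Other genes of the chaperone system did not share one direction. Of 4 further family genes, Hspb11 was tested, and Cryaa, Hspb9 and Odf1 are not analysed here. Hspb11 is an intraflagellar transport protein with weak similarity to the family, and it rose from 2.69 ± 0.590 to 5.32 ± 0.760 CPM in BL6 and from 4.01 ± 0.569 to 6.23 ± 0.802 CPM in MRL (SD, n = 4; edgeR adjusted p = 0.000263 and 0.0106). The list of heat shock factors had 4 genes tested, Hsf1, Hsf2, Hsf4 and the binding protein Hsbp1. Of these 1 rose and 1 fell in BL6, where 67.9% of all genes were called. None was called in MRL, where 45% of all genes were. Hsf1, the main stress-responsive factor, fell from 54.4 ± 3.46 to 43.95 ± 6.27 CPM in BL6, at log2 -0.31 (edgeR adjusted p = 0.0133), and Hsbp1, which restrains it and is no heat shock factor itself, rose by 0.39. Neither Hsf2 nor Hsf4 was called. In MRL, Hsf1 had a log2 value of -0.25 (edgeR adjusted p = 0.0569).

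Of 16 heat-inducible chaperones, 3 rose, 6 fell and 7 were not called in BL6, and 4 rose, 1 fell and 11 were not called in MRL. Their median log2 fold changes were -0.37 and -0.01. Over all genes tested, 35.1% were called higher and 32.8% lower in BL6, and 22.3% and 22.7% in MRL. In BL6, Dnajb1, Hspa8 and Dnaja1 rose by 1.03, 0.98 and 0.79 on the log2 scale, and Hspa4l, the mitochondrial chaperonin Hspd1 and Cacybp fell by 1.10, 0.73 and 0.56. In MRL, Hspa1a, Hspa1b and Dnaja1 rose by 2.88, 2.87 and 1.06, while Fkbp4 fell by 0.39. For Hspa8, the constitutive Hsp70, the MRL effect of surgery was lower than the BL6 effect by 1.17 on the log2 scale in the test of the difference (edgeR adjusted p = 0.0347). Hspa8 held 177.6 ± 23.4 CPM in unoperated and 350.7 ± 61.3 CPM in operated BL6 but only 18.45 ± 1.09 and 16.18 ± 2.41 CPM in MRL (SD, n = 4), so that difference in response sits on a large difference in level. It has processed copies in the genome, so its counts are uncertain.

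The BAG3 co-chaperone complex carries Hspb8 and its clients to autophagy. Of its 10 listed genes, 2 rose and 2 fell in BL6, where 67.9% of all genes were called. In MRL 4 rose and 1 fell, where 45% of all genes were called. Stub1, the ubiquitin ligase of the complex, rose by log2 0.76 in BL6 and by 0.40 in MRL. Bag3 itself had 187 ± 18.0 and 241 ± 37.6 CPM in unoperated and operated BL6, which was not called (edgeR adjusted p = 0.0832), and rose from 178 ± 20.9 to 250 ± 71.8 CPM in MRL (SD, n = 4; edgeR adjusted p = 0.0388). Synpo2, a Z-disc partner of Bag3, fell by 1.06 in BL6 and 0.53 in MRL. Kinases known to phosphorylate Hspb1 and Hspb6, or to act upstream of those that do, were lower after surgery. All 5 tested fell in both strains, with median log2 fold changes of -0.75 and -0.54. Over all genes tested, 32.8% were called lower in BL6 and 22.7% in MRL. Mapkapk3 fell from 75.3 ± 3.75 to 32.7 ± 9.63 CPM in BL6 and from 65.0 ± 4.82 to 27.6 ± 7.91 CPM in MRL, Mapk14 (p38 alpha) by 1.12 and 0.68 and Mapkapk2 by 0.75 and 0.54 on the log2 scale.

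Of 9 cytoskeletal and Z-disc partners, 2 rose and 3 fell in BL6, and 1 rose and 1 fell in MRL. Over all genes tested, 35.1% were called higher and 32.8% lower in BL6, and 22.3% and 22.7% in MRL. Vim, the intermediate filament of non-muscle cells and regenerating fibres, rose by 2.11 in BL6, and Actn2 rose in both strains as given above. Synm, Ttn and Myot fell by 1.74, 1.27 and 0.71 in BL6, and Synm fell by 0.95 in MRL. Dmpk, the partner of Hspb2, was called in neither strain, with log2 fold changes of -0.04 and 0.29. Desmin, the best known client of Cryab, was not called either, at 0.07 and -0.11. Slow fibre genes are relevant because slow, oxidative fibres hold more of several small heat shock proteins. Of 11 such genes 2 rose in BL6 (Tnnt1 and Tpm3, by 1.77 and 1.04 on the log2 scale) and 8 in MRL. The MRL rise was led by Myl3, Tnnt1 and Tnni1, at 2.67, 2.59 and 2.56 on that scale. Their operated MRL samples were uneven, at 0.728 to 57.2, 14.6 to 199 and 2.91 to 89.3 CPM. They overlapped the unoperated MRL samples, at 0.948 to 5.50, 11.7 to 17.4 and 3.39 to 7.36 CPM. In the direct test of the strain difference in response, 0 of the 11 were called. Of 10 fast fibre genes 3 fell in each strain, near the shares of all genes called lower. In BL6, Casq1, Atp2a1 and Myh4 fell by 1.48, 1.22 and 1.19. In MRL, Casq1, Atp2a1 and Tpm1 fell by 1.21, 0.95 and 0.66. The part of fibre type in the members' values was not tested.

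Markers of other cells moved with surgery too. Smooth muscle and pericytes also express Cryab, Hspb1 and Hspb6. Of their 7 tested markers, 6 rose in BL6 and 5 in MRL, and their summed level in BL6 was 520 to 584 CPM without surgery and 867 to 1349 CPM with it. In MRL it was 443 to 578 CPM without and 744 to 1281 CPM with surgery. All 6 adipocyte markers tested rose in both strains. Schwann cell markers rose in 6 and 5 of 6, endothelial markers in 4 and 5 of 6, macrophage markers in 4 and 1 of 7, fibroblast and mesenchymal progenitor markers in 4 and 0 of 7, and tendon markers in 3 and 0 of 3, in BL6 and MRL respectively. Of 3 satellite cell markers 1 rose and 2 fell in BL6 and 1 rose and 1 fell in MRL, and 0 of 5 erythroid genes were called. Of the skeletal muscle fibre markers, 3 of 6 fell in each strain and 1 rose in BL6. In BL6, Acta1 went from 27680 ± 2093 to 13970 ± 3311 CPM (SD, n = 4). Myl1 went from 4682 ± 540 to 6356 ± 1235 CPM and Mylpf from 11860 ± 613 to 13330 ± 3467 CPM. In MRL, Acta1 went from 23000 ± 2185 to 13560 ± 3790 CPM (SD, n = 4). Myl1 went there from 2641 ± 190 to 2473 ± 338 CPM and Mylpf from 11630 ± 1452 to 12230 ± 2035 CPM. Of all genes tested, 35.1% were called higher in BL6 and 22.3% in MRL, and 32.8% and 22.7% were called lower. In the direct test of the strain difference in response, 0 markers in these lists were called. Summed macrophage markers ran from 34.8 to 208 CPM in operated BL6. Those of fibroblasts and mesenchymal progenitors ran from 1130 to 7721 CPM there. No marker in these lists was at 0 in a sample. The part of these cells in the members' values was not tested.

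The profiles closest to the remaining members were those of Rnf144a for Cryab, Snf8 for Hspb2, Ccnq for Hspb3, Isoc2b for Hspb6 and Cdc42ep2 for Hspb8, at root mean square differences of 0.24, 0.13, 0.10, 0.15 and 0.14 over the 16 samples. The second closest were Gimap1, Smarce1, Gpx4, Kxd1 and Adprm, and Ifi35 and Tnip2 for Hspb1 and Hspb7. No member was among the 2 closest genes of another. Cryab and Hspb2 differed by 0.49, with 562 genes closer to Cryab. By this measure the closest pair within the family was Hspb3 and Hspb8, at 0.24, with 896 genes closer to Hspb3. Hspb3 and Hspb8 themselves had spreads of only 0.30 and 0.25 on that scale, so their difference was nearly as large as their own variation. These values describe the likeness of profiles that all share the same libraries.

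The authors' deposited table gave the same direction as the values above for each of the 7 members in its 4 comparisons. Its false discovery rate put 26 of these 28 results on the same side of 0.05. The exceptions were Hspb1 among unoperated strains, with a false discovery rate of 0.0585 in the authors' deposited table, and Cryab among operated strains, with 0.0584 there. For Cryab the authors' deposited table gave log2 fold changes of 1.47 in BL6 and 1.60 in MRL, and for Hspb7 1.42 and 0.90.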

How the data were processed

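Messenger RNA of 16 rotator cuff muscle samples was analysed, grouped by the titles in the labels. RNA was isolated with a column kit and DNase, per the labels' protocols. FastQC, STAR, edgeR and the build mm10 are named with no version per the submitters' processing notes; the counting program, annotation and use of strand are not given in the sources used here. The authors deposited whole-number counts per gene without normalization, for 11710 genes. A second deposited table of the authors gives log2 fold changes, an average log2 CPM, and p-values with false discovery rates, per the file headers.

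From the counts, edgeR 4.0.16 in R 4.3.3 fitted 1 mean per group to all 16 samples, after TMM scaling and filterByExpr at a minimum count of 10, which kept 11709 genes. Quasi-likelihood tests were adjusted by Benjamini-Hochberg over all genes tested and called under 0.05. The SE is the fold change over the root of the F statistic. CPM use TMM-scaled library sizes; log2 CPM used a prior count of 2. Alternatives were RLE factors, total counts, DESeq2 1.42.0, limma-voom 3.58.1, no filter, only the groups compared, the replicate block and leaving out each sample. Leaving out 2 libraries that stood apart was added after seeing the data. The fit was tested on simulated data. No pair of replicates agreed within sampling noise.

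The members and lists were chosen with earlier results of these data known. All members are named; of other lists, the called genes with the largest changes (up to 3 in each direction), with Bag3, Hsf1 and Dmpk; and the 2 genes closest to each member in centred log2 CPM. Stub1 and Des, and the choice of Acta1, Myl1 and Mylpf among markers, fall outside that rule, having been picked with their values in view. Genes were located with GENCODE M21 (GRCm38, the same build as mm10).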

Additional observations from a re-analysis of the deposited data

Results flagged for a closer look

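Among 28 sets of 4 samples, 7 genes in 4 groups, 2 held a sample far from the others; chance alone flags about 1 in 20 such sets. Both concerned Hspb7. Operated BL6 replicate 2 held 593 CPM, against 1020 to 1050 CPM in the other 3 samples of its group. On the first principal component it lay at 16.7, against 44.6 to 86.1 in those samples. Among the other members, only Cryab was also lowest of its group there, at 2507 CPM. Unoperated MRL replicate 4 held 789 CPM, against 399 to 461 CPM in the other 3.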

How the results depend on the processing

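Each comparison was recomputed under 24 alternatives. Of 840 values of single members, 765 kept their direction and their side of the threshold, 47 lost a call, 10 gained one and 18 changed sign. The surgery calls of Cryab, Hspb2 and Hspb7 in both strains held under all 24. So did those of Hspb3 and Hspb8 in BL6 and the call of Hspb6 between operated strains. The number of members called for surgery in MRL fell from 5 to 3 with only the groups compared, and ran from 3 to 5 on leaving out each sample. Between unoperated strains it went from 3 to 0 with total counts alone, and ran from 1 to 3 on leaving out samples. Between operated strains it went from 2 to 1 with total counts alone and to 1 with only the groups compared, and ran from 1 to 3 on leaving out samples. Over all genes, leaving out samples gave 3490 to 6145 calls for surgery in MRL, against 5272, and 1 to 69 for the strain difference in response, against 29, with 14 by total counts alone and 250 by DESeq2. Only the groups compared gave 2438 calls between unoperated and 575 between operated strains, against 1216 and 1507. For surgery in MRL that fit called 2667 genes higher and 2555 lower, against 2609 and 2663. Leaving out samples gave 821 to 1572 calls between unoperated and 1030 to 1842 between operated strains. Total counts alone called 742 genes higher and 313 lower between unoperated strains, against 588 and 628, and 994 and 383 between operated strains, against 890 and 617. The sign changes were in values that were not called. With total counts alone the strain difference in the surgery effect was -0.024 for Cryab and -0.082 for Hspb2. On leaving out samples it ran from -0.015 to 0.17 for Cryab, -0.048 to 0.082 for Hspb2, -0.22 to 0.49 for Hspb1 and -0.20 to 0.003 for Hspb3; between operated strains, Hspb3 ran from -0.019 to 0.18 and Hspb7 from -0.23 to 0.20. The cause was not tested. The labels used here link same-numbered samples only by their number. Their deviations correlated at -0.14 to 0.17 on average over 4 pairs of groups, and those of differently numbered samples at -0.05 to 0.05. The same-numbered mean was the higher one except between the BL6 groups, at -0.14 against 0.05. Whether same-numbered samples share a batch was not tested. With the replicate block, 2 genes were called for the strain difference in response, and 7, 5, 0, 3 and 3 members for surgery in BL6, surgery in MRL, the strain difference in response, unoperated strains and operated strains. Over all genes, the block called 4047 higher and 3883 lower for surgery in BL6, and 2527 and 2670 for surgery in MRL. Between strains it called 549 higher and 597 lower in unoperated samples, and 770 and 584 in operated ones. Hspb1 was called under the block for surgery in BL6, at 0.67 (edgeR adjusted p = 0.0298), and between operated strains, at -1.03 (0.0189). With 4 samples a group, differences inside the printed intervals could not be resolved.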
